A study of Homo sapiens with 27 samples.

Results

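DNA repair and checkpoint genes were followed in U937 cells, a human line of monocyte-like histiocytic lymphoma cells. They were 41 genes taken from a fixed list by gene symbol (MRE11 under its older symbol MRE11A). That list, like the other gene lists and the promoter letters below, was chosen with earlier results of these data known. A named probe was found for 40 of the 41, out of 15207 named genes and 30968 probes on the array. FANCG had none, so its expression is not analysed here. Each gene is represented by its brightest probe, the one with the highest mean log2 intensity. Cells were untreated, exposed to 4 µg/ml lipopolysaccharide (LPS, from the outer membrane of Gram-negative bacteria and sensed by macrophages), or kept for 2 h with 10 µM of the glutaminyl cyclase inhibitor PBD150 before LPS at the same dose. All groups were cultured for 48 h in the same serum-containing medium without a stated differentiating agent, although the labels speak of macrophages; the line is a single tumour line, and LPS and PBD150 plus LPS shared the LPS dose, with no group given PBD150 alone. Each group had 3 biological replicates with 3 one-colour arrays apiece (27 in total), and the replicate here is the culture, so n = 3; nothing in the labels says how separate the cultures were, so p-values measure the spread between these samples.

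DNA breaks, cross-links and mismatched bases are handled by separate but connected pathways. ATM and ATR are kinases that sense damage and, through CHEK2 and CHEK1, halt the cell cycle; homologous recombination copies from the sister chromatid and so works mainly after replication; end joining works throughout the cycle. Fanconi anaemia proteins unhook cross-linked strands, mismatch repair corrects copying errors, and base excision repair replaces single damaged bases. Many genes of the replication-linked pathways are known to be transcribed mainly in dividing cells, through E2F factors, while several others are expressed at all stages.

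With LPS most of the genes were lower. Of 40 measured genes 25 fell and 2 rose (limma, adjusted p under 0.05 over all probes), or 62.5% and 5%, where 15.4% of all named genes were lower and 13.6% higher. That background depends on the scaling: 2343 named genes were lower and 2061 higher, against 1435 and 3312 on the values as deposited and 2373 and 1469 with median centring, and the all-gene median was then 0.38 or -0.10. The median difference of the 40 genes was -1.41 on the log2 scale, against 0.05 over all named genes, and -1.17 and -1.65 under those scalings. By their brightest probes EXO1, UNG, CHEK1, FANCF, FANCI, BARD1, PMS1, BLM and RAD51C fell by over 4-fold, while FANCL and XRCC1 rose. RAD54B also fell by over 4-fold in the fit, but most of its treated values carry no firm size, as given below. A second FANCF probe did not pass, at -0.92 (limma adjusted p = 0.151). The LPS calls of XRCC1 and BLM were lost under some alternatives given below. With PBD150 plus LPS 24 fell and 2 rose against untreated cells, where 17.9% of named genes were lower and 15.3% higher, and the median difference was -1.63. All 24 had also fallen with LPS, but the comparisons share the untreated samples. Between PBD150 plus LPS and LPS no gene of the 40 passed.

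Untreated arrays had median intensities of 41.5 to 74.9, LPS arrays 68.3 to 100.3 and arrays of the PBD150 group 64.7 to 92.0, which quantile normalisation made equal; values below are normalised log2 intensities. Of the 40 genes, 33 were above the noise limit (3 times the root mean square of the values below 0) on all 9 untreated arrays, 30 on all 9 LPS arrays and 27 on all 9 PBD150 plus LPS arrays. FANCB was above it on none of the 27. The median SD between replicates of these genes was 0.12 in untreated cultures, 0.43 after LPS and 0.33 after the inhibitor and LPS. Over all named genes it was 0.15, 0.35 and 0.33. All 10 measured monocyte and macrophage markers, CD14 and ITGAM among them, were above noise on every array, and 7 of them rose with LPS. Of all named genes 13.6% rose with LPS and 15.4% fell. Of lineage markers foreign to the line, 1 of 8 for T or NK cells, 1 of 4 for B cells and 2 of 7 for fibroblasts or epithelium rose with LPS, and 1 B cell marker, CD79A, fell. Their mean log2 levels were 5.91 to 6.14, 6.77 to 6.89 and 4.21 to 4.62 in the untreated replicates and 6.41 to 6.76, 6.39 to 6.83 and 5.06 to 5.27 with LPS. Of the 8 T or NK cell markers 5 were above noise on all 9 untreated arrays and 6 on all 9 LPS arrays. For the 4 B cell markers the counts were 3 and 3, and for the 7 fibroblast or epithelium markers 2 and 4. COL3A1, of the last list, was above noise on 1 untreated array and no LPS array. The part of these foreign markers in the results was not tested.

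**Figure D1:**
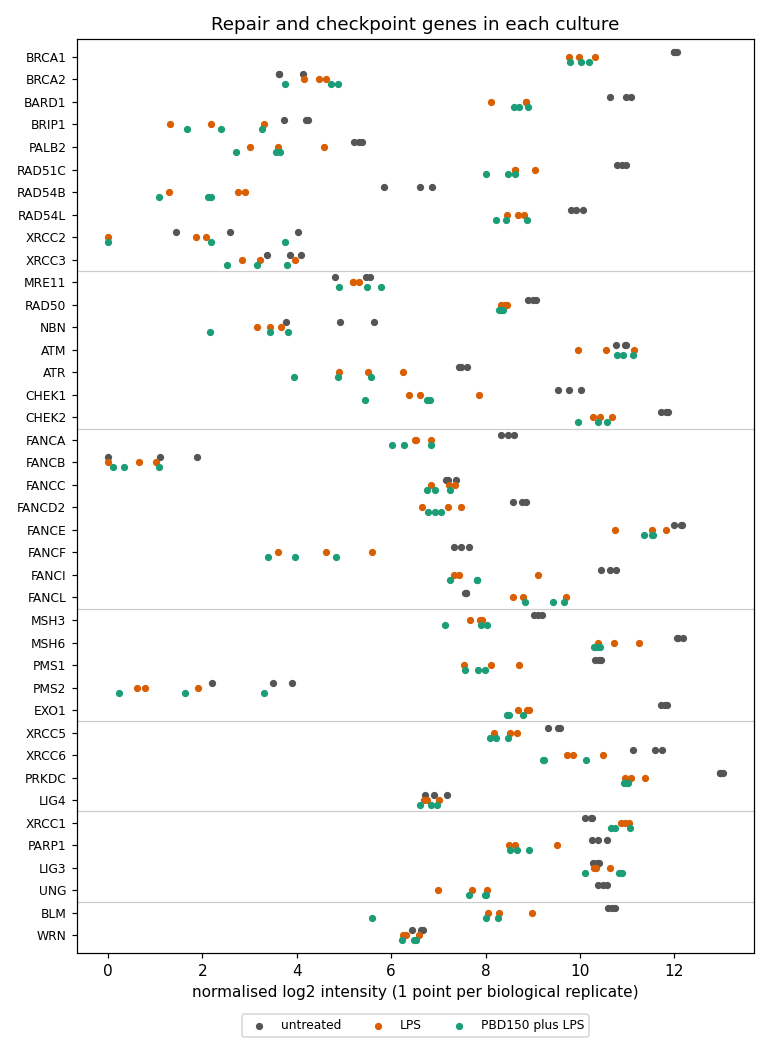
Normalised log2 intensity (x axis) of the 40 genes in each biological replicate, with grey lines between the 7 roles; each point is 1 culture, the mean of 3 arrays. Untreated and treated points separate for genes such as EXO1 (11.72 to 11.84 untreated, 8.68 to 8.93 with LPS) and overlap for WRN; levels of different genes are not comparable, since each has its own probe.

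Promoter letters were looked at because many genes of the set moved together. RefSeq promoter windows (GRCh38.p14, 250 bases before to 50 after a start) were matched by symbol for 35 of the 41 genes. FANCG, which has no probe, is counted in the 35 and held none of the letters searched for. The letters TTTGGCG, the letters TTTCCCG and the letters TTTCGCG, which resemble sites of E2F factors, were searched for on both strands, and at least 1 of them stood in 14 of these 35, or 40%, against 12.03% of 12207 genes on the array and 8.67% of all 27305 genes with a window. Of the genes that fell with LPS and had a window, 11 of 21 held them, and of those not called, 3 of 11. These 3 were FANCC, XRCC2 and PMS2. XRCC2 was above noise on 4 untreated arrays and PMS2 on 3, each on 1 LPS array, so not called does not mean unchanged. CCAAT, the core of NF-Y sites, was in 19 of 35 (54.3%, against 42.75% of genes on the array), and TTTGAA or else TTCGAA, the letters of the cell cycle homology region, in 5 of 35 (14.3%, against 17.16%). Genes with several listed starts had several windows and so more chances to match. The following stretches of 51 bases lie upstream of the start, outside any listed gene, and are written 5′ to 3′ on the gene's strand with the E2F-like letters, or their reverse complement, in capitals. They are shown because the first 5 genes fell with LPS and FANCC, which has the same kind of letters, was not called.
FANCF, chr11:22625860-22625910, minus strand: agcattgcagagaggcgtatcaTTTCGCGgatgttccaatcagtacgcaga
PMS1, chr2:189784349-189784399, plus strand: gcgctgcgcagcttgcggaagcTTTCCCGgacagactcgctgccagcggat
PARP1, chr1:226408160-226408210, minus strand: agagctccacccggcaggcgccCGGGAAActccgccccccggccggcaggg
ATR, chr3:142578915-142578965, minus strand: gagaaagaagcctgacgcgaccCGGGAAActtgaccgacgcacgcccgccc
RAD50, chr5:132556902-132556952, plus strand: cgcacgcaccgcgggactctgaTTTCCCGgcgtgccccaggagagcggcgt
FANCC, chr9:95317852-95317902, minus strand: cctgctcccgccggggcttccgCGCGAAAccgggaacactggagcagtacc
The matches begin at positions -65, -79, -95, -210, -53 and -171 from the start, in that order. A match describes these letters and is not a measured binding site. Genes and letters were both chosen with earlier results of these data known, so the shares above are descriptive. The part of E2F factors in the falls was not tested.

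Homologous recombination and the BRCA complexes had 7 of 10 genes lower with LPS and none of the 10 higher, with a median difference of -1.68. Of all named genes 15.4% were lower with LPS. BRCA1, the ubiquitin ligase that directs breaks to recombination, had log2 values of 12.05, 11.99 and 12.00 in untreated replicates 1 to 3, 10.31, 9.76 and 9.98 with LPS and 10.02, 10.20 and 9.80 with PBD150 plus LPS. All 6 treated values lay below the untreated ones, the differences were -1.99 ± 0.20 (SE, limma adjusted p = 0.000276) with LPS and -2.01 ± 0.20 (adjusted p = 0.000221) with PBD150 plus LPS, and BRCA1 was among the members with the smallest spread untreated (SD 0.03). Its partner BARD1 had values of 10.98, 11.08 and 10.63 in untreated replicates 1 to 3, 8.12, 8.86 and 8.87 with LPS and 8.70, 8.89 and 8.61 with PBD150 plus LPS. LPS replicate 1 was the lowest culture for BARD1, which fell by 2.28 with LPS (SE 0.25, adjusted p = 0.000406) and 2.16 with PBD150 plus LPS (adjusted p = 0.000444). RAD51C, a paralogue of the strand-exchange recombinase, had values of 10.89, 10.97 and 10.79 in untreated replicates 1 to 3, 9.06, 8.62 and 8.63 with LPS and 8.62, 8.01 and 8.48 with PBD150 plus LPS. Its groups did not overlap with untreated cells, at -2.11 ± 0.22 (adjusted p = 0.000325) and -2.51 ± 0.22 (adjusted p = 0.000123).

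RAD54L and RAD54B encode translocases that help the recombinase invade the sister strand. RAD54L stood at 10.07, 9.92 and 9.82 in untreated replicates 1 to 3, 8.82, 8.69 and 8.45 with LPS and 8.87, 8.44 and 8.22 with PBD150 plus LPS, and fell by 1.28 (SE 0.22, limma adjusted p = 0.00357) and 1.43 (adjusted p = 0.00181). RAD54B had values of 5.85, 6.88 and 6.60 in untreated replicates 1 to 3, 2.75, 2.91 and 1.29 with LPS and 2.11, 2.19 and 1.07 with PBD150 plus LPS. RAD54B was above the noise limit on 9 untreated arrays, 1 LPS array and 0 PBD150 plus LPS arrays, so most treated values carry no firm size. It passed with LPS at a fitted -4.13 ± 0.50 (adjusted p = 0.000672), which is not a measured size, and with PBD150 plus LPS it was at least 5.14-fold lower (adjusted p = 0.000303). PALB2, which bridges BRCA1 and BRCA2, had values of 5.22, 5.32 and 5.38 in untreated replicates 1 to 3, 4.57, 3.61 and 3.01 with LPS and 2.72, 3.56 and 3.65 with PBD150 plus LPS and was above noise on 9, 4 and 2 arrays of the groups. The 3 arrays of its lowest culture, PBD150 plus LPS replicate 1, spanned 4.26 on the log2 scale. It fell by 1.57 (adjusted p = 0.0241) and 2.00 (adjusted p = 0.00717); the LPS call did not hold as deposited, with the replicate block, or without any 1 untreated replicate, LPS replicate 2 or LPS replicate 3 (adjusted p = 0.0605 to 0.0718). BRIP1, a helicase that binds BRCA1, was above noise on 7 untreated arrays and on no LPS array. With its LPS values raised to the lowest signal above noise, it was 1.04-fold lower with LPS. Not every untreated array was above noise, so no firm size is given. The LPS difference of BRIP1 passed (limma adjusted p = 0.0459). That call was lost under most alternatives run, with adjusted p = 0.0517 to 0.132, among them the loss of any 1 untreated replicate, of LPS replicate 2 or 3, and of PBD150 plus LPS replicate 3. With PBD150 plus LPS the fitted difference of BRIP1 was -1.61 ± 0.54 and did not pass (adjusted p = 0.0597).

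The other members of this role did not pass. BRCA2, which loads the recombinase, had values of 3.63, 4.14 and 3.62 in untreated replicates 1 to 3, 4.47, 4.62 and 4.15 with LPS and 4.72, 4.87 and 3.76 with PBD150 plus LPS and differences of 0.61 ± 0.32 (adjusted p = 0.216) and 0.65 ± 0.32 (adjusted p = 0.173). All LPS values of BRCA2 lay above the untreated ones by the brighter probe, while the dimmer probe gave -0.80 and -1.53, and the mean of both probes -0.09 and -0.44, so no direction is given for it. Without PBD150 plus LPS replicate 3 the brighter BRCA2 probe passed in that comparison, at 0.99 (adjusted p = 0.0196). XRCC2 and XRCC3, further recombinase paralogues, were above noise on 4, 1 and 2 and on 3, 2 and 1 arrays of the groups. Their LPS differences were -1.37 ± 1.02 and -0.43 ± 0.40, those with PBD150 plus LPS -0.71 ± 1.02 and -0.61 ± 0.40, and their replicates overlapped with untreated cells.

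Among the genes that sense breaks and relay the checkpoint, the kinases split. CHEK1, the effector kinase below ATR, had values of 9.54, 10.03 and 9.77 in untreated replicates 1 to 3, 7.87, 6.61 and 6.38 with LPS and 5.46, 6.82 and 6.76 with PBD150 plus LPS. LPS replicate 1 kept the highest treated value, and no treated value reached the untreated ones. CHEK1 fell by 2.83 (SE 0.48, limma adjusted p = 0.00333) and 3.43 (SE 0.48, adjusted p = 0.00108), or 7.11-fold and 10.8-fold. The 3 arrays of its lowest culture, PBD150 plus LPS replicate 1, spanned 2.47 on the log2 scale. ATR, which senses stalled forks, had values of 7.44, 7.61 and 7.48 in untreated replicates 1 to 3, 6.26, 5.51 and 4.89 with LPS and 3.95, 4.88 and 5.57 with PBD150 plus LPS. It differed by -1.96 ± 0.45 (adjusted p = 0.0146) and -2.71 ± 0.45 (adjusted p = 0.00267), and the LPS call was lost without untreated replicate 2 or LPS replicate 3 (adjusted p = 0.0503 and 0.051). The arrays of PBD150 plus LPS replicates 1 and 3 spanned 2.71 and 2.60 for ATR.

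CHEK2, the effector below ATM, had values of 11.87, 11.82 and 11.71 in untreated replicates 1 to 3, 10.29, 10.68 and 10.42 with LPS and 10.57, 10.38 and 9.96 with PBD150 plus LPS. Its groups were tight and apart, at -1.34 ± 0.21 (adjusted p = 0.00253) and -1.50 ± 0.21 (adjusted p = 0.00121), and its second probe fell by 2.25 and 2.59. ATM itself, the kinase activated by double-strand breaks, had values of 10.98, 10.95 and 10.76 in untreated replicates 1 to 3, 9.96, 11.15 and 10.54 with LPS and 10.91, 11.12 and 10.78 with PBD150 plus LPS. Its treated values overlapped the untreated ones, with differences of -0.34 ± 0.29 (adjusted p = 0.454) and 0.04 ± 0.29 (adjusted p = 0.938); the latter was -0.18 with median centring.

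MRE11, RAD50 and NBN form the complex that binds broken ends. RAD50 stood at 9.01, 9.07 and 8.90 in untreated replicates 1 to 3, 8.34, 8.45 and 8.41 with LPS and 8.36, 8.33 and 8.29 with PBD150 plus LPS, so every treated value was lower, by 1.51-fold with LPS and 1.58-fold with PBD150 plus LPS. Its differences of -0.60 ± 0.16 (adjusted p = 0.026) and -0.66 ± 0.16 (adjusted p = 0.0145) passed, and did not on the values as deposited (adjusted p = 0.343 and 0.107). The LPS call was also lost with the replicate block and without any 1 untreated replicate or LPS replicate 2 or 3 (adjusted p = 0.0614 to 0.343 in all), and the other with the block and without untreated replicate 1 or 2 (adjusted p = 0.0521 to 0.107 in all). MRE11, the nuclease, had values of 5.47, 4.81 and 5.56 in untreated replicates 1 to 3, 5.32, 5.19 and 5.19 with LPS and 5.79, 4.91 and 5.50 with PBD150 plus LPS, which overlapped, and differences of -0.05 ± 0.29 and 0.12 ± 0.29 whose sign turned between alternatives. NBN was above noise on 7, 2 and 2 arrays of the groups, with differences of -1.36 ± 0.54 (adjusted p = 0.111) and -1.64 ± 0.54 (adjusted p = 0.0539), and did not pass.

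The Fanconi anaemia pathway held genes that moved in opposite directions. FANCI and FANCD2 form the complex that marks cross-links. FANCI had values of 10.77, 10.63 and 10.45 in untreated replicates 1 to 3, 9.12, 7.44 and 7.34 with LPS and 7.24, 7.82 and 7.81 with PBD150 plus LPS. LPS replicate 1 stood above the other LPS cultures, and FANCI fell by 2.65 (SE 0.45, limma adjusted p = 0.00341) and 2.99 (adjusted p = 0.00161). FANCD2 had values of 8.85, 8.77 and 8.57 in untreated replicates 1 to 3, 6.65, 7.48 and 7.20 with LPS and 6.79, 7.07 and 6.92 with PBD150 plus LPS. Here LPS replicate 1 was the lowest LPS culture, and the differences were -1.62 ± 0.24 (adjusted p = 0.00173) and -1.81 ± 0.24 (adjusted p = 0.000853), with -1.80 and -1.83 by its second probe.

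FANCA, FANCE, FANCF and FANCL belong to the core complex that ubiquitinates this pair, and FANCL is its catalytic subunit. FANCA had values of 8.33, 8.59 and 8.48 in untreated replicates 1 to 3, 6.51, 6.84 and 6.52 with LPS and 6.84, 6.03 and 6.28 with PBD150 plus LPS, with no overlap, and fell by 1.84 (adjusted p = 0.000946) and 2.09 (adjusted p = 0.000431). FANCF, an adaptor, had values of 7.65, 7.49 and 7.32 in untreated replicates 1 to 3, 5.60, 3.61 and 4.62 with LPS and 3.40, 3.96 and 4.84 with PBD150 plus LPS and was above noise on 9, 7 and 3 arrays of the groups. It differed by -2.87 ± 0.51 (adjusted p = 0.00453) and -3.42 ± 0.51 (adjusted p = 0.00165); a second FANCF probe gave -0.92 (adjusted p = 0.151) and -2.15 (adjusted p = 0.00546).

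FANCL, in contrast, had values of 7.59, 7.57 and 7.58 in untreated replicates 1 to 3, 8.58, 9.71 and 8.79 with LPS and 9.66, 8.84 and 9.43 with PBD150 plus LPS. The untreated cultures had an SD of 0.01 and every treated culture was higher, by 1.45 ± 0.33 (adjusted p = 0.0138) and 1.73 ± 0.33 (adjusted p = 0.0053), or 2.74-fold and 3.32-fold. Arrays of a single culture differed by more than that SD. The 3 arrays of a culture spanned 0.06 to 0.43 on the log2 scale in untreated cells. In treated cultures they spanned 0.23 to 2.48, the widest being LPS replicate 3. Both calls for FANCL were kept under all alternatives run. FANCE had values of 11.99, 12.13 and 12.16 in untreated replicates 1 to 3, 10.74, 11.82 and 11.52 with LPS and 11.53, 11.35 and 11.54 with PBD150 plus LPS, all treated ones lower, with differences of -0.73 ± 0.27 (adjusted p = 0.0931) and -0.62 ± 0.27 (adjusted p = 0.133) that did not pass. FANCC, another core subunit, overlapped at -0.09 ± 0.21 and -0.26 ± 0.21, and both were above 0 on the values as deposited, at 0.28 and 0.01. FANCB, the core subunit that was never above noise, had fitted differences of -0.44 ± 0.50 and -0.49 ± 0.50, to which no size can be given.

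Mismatch repair genes were lower in 4 of 5 cases in each treated group, where 15.4% (LPS) and 17.9% (PBD150 plus LPS) of all named genes were. EXO1, the exonuclease that removes the mismatched strand, had values of 11.81, 11.72 and 11.84 in untreated replicates 1 to 3, 8.88, 8.93 and 8.68 with LPS and 8.78, 8.46 and 8.51 with PBD150 plus LPS. The gap between treated and untreated cultures was large against their spread: EXO1 fell by 2.96 (SE 0.17, limma adjusted p = 2.33e-05) and 3.21 (SE 0.17, adjusted p = 1.51e-05), the smallest p of the 40 genes in both comparisons. PMS1, a MutL homologue, had values of 10.44, 10.40 and 10.32 in untreated replicates 1 to 3, 8.71, 8.12 and 7.55 with LPS and 7.84, 7.99 and 7.57 with PBD150 plus LPS. It fell by 2.26 (adjusted p = 0.000836) and 2.59 (adjusted p = 0.000354), and by 2.75 and 3.71 on the log2 scale with its second probe.

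MSH6 and MSH3 encode proteins that recognise mismatches and small loops. MSH6 had values of 12.18, 12.07 and 12.05 in untreated replicates 1 to 3, 11.24, 10.71 and 10.39 with LPS and 10.36, 10.42 and 10.31 with PBD150 plus LPS, with LPS replicate 1 nearest to untreated, and differences of -1.32 ± 0.23 (adjusted p = 0.00403) and -1.74 ± 0.23 (adjusted p = 0.000857). MSH3 had values of 9.19, 9.12 and 9.02 in untreated replicates 1 to 3, 7.93, 7.88 and 7.67 with LPS and 7.15, 7.91 and 8.04 with PBD150 plus LPS and fell by 1.28 (adjusted p = 0.00692) and 1.41 (adjusted p = 0.00384). With the mean of its probes the LPS difference of MSH3 did not pass (adjusted p = 0.0722). PMS2, the main MutL partner, was above noise on 3, 1 and 1 arrays of the groups and did not pass, at -2.09 ± 0.77 (adjusted p = 0.0901) and -1.47 ± 0.77 (adjusted p = 0.2).

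End joining genes fell in 3 of 4 cases in each treated group, where 15.4% (LPS) and 17.9% (PBD150 plus LPS) of all named genes did. XRCC5 and XRCC6 encode the Ku ring that slides onto broken ends, and PRKDC the kinase that Ku recruits. PRKDC had values of 13.03, 12.97 and 12.98 in untreated replicates 1 to 3, 11.39, 11.07 and 10.96 with LPS and 11.01, 10.99 and 10.94 with PBD150 plus LPS. Untreated cultures and PBD150 plus LPS cultures were each within an SD of 0.04, and PRKDC fell by 1.85 (SE 0.18, limma adjusted p = 0.0002) and 2.01 (adjusted p = 0.000118). XRCC6 had values of 11.12, 11.59 and 11.75 in untreated replicates 1 to 3, 10.49, 9.86 and 9.73 with LPS and 9.24, 9.23 and 10.12 with PBD150 plus LPS, with differences of -1.46 ± 0.33 (adjusted p = 0.0131) and -1.95 ± 0.33 (adjusted p = 0.00277). XRCC5 had values of 9.31, 9.54 and 9.59 in untreated replicates 1 to 3, 8.66, 8.19 and 8.53 with LPS and 8.22, 8.10 and 8.47 with PBD150 plus LPS, apart in both comparisons, and fell by 1.02 (adjusted p = 0.00722) and 1.22 (adjusted p = 0.0027). On the values as deposited the LPS differences of XRCC5 and XRCC6 did not pass (adjusted p = 0.0788 and 0.0687), and without untreated replicate 3 that of XRCC6 was also lost (adjusted p = 0.0527). LIG4, the ligase that seals the joint, had values of 7.19, 6.91 and 6.72 in untreated replicates 1 to 3, 7.02, 6.70 and 6.76 with LPS and 6.62, 6.85 and 6.97 with PBD150 plus LPS. Its groups overlapped, with differences of -0.11 ± 0.20 and -0.13 ± 0.20 that were above 0 on the values as deposited, at 0.27 and 0.14.

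Base excision and single-strand break repair was divided. UNG, the glycosylase that removes uracil from DNA, had values of 10.38, 10.49 and 10.58 in untreated replicates 1 to 3, 7.0, 8.04 and 7.70 with LPS and 8.00, 7.65 and 8.02 with PBD150 plus LPS. LPS replicate 1 was the lowest of the 9, and UNG fell by 2.90 (SE 0.27, limma adjusted p = 0.000196) and 2.60 (adjusted p = 0.000267). PARP1, which marks strand breaks with poly(ADP-ribose), had values of 10.58, 10.27 and 10.37 in untreated replicates 1 to 3, 9.5, 8.49 and 8.61 with LPS and 8.52, 8.91 and 8.68 with PBD150 plus LPS and differences of -1.54 ± 0.28 (adjusted p = 0.00526) and -1.70 ± 0.28 (adjusted p = 0.00278).

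XRCC1, the scaffold that gathers the single-strand break enzymes, had values of 10.11, 10.23 and 10.26 in untreated replicates 1 to 3, 10.95, 11.05 and 10.88 with LPS and 10.73, 10.66 and 11.07 with PBD150 plus LPS. All treated cultures were higher, by 0.76 ± 0.18 (limma adjusted p = 0.0167) and 0.62 ± 0.18 (adjusted p = 0.0344). Neither call for XRCC1 held with median centring (adjusted p = 0.134 and 0.3), where its direction stayed the same. The LPS call was also lost with the replicate block and without any 1 untreated replicate or LPS replicate 2 (adjusted p = 0.0517 to 0.134 in all). The other was lost as deposited, with the block, and without any 1 untreated replicate, LPS replicate 2, or PBD150 plus LPS replicate 1 or 3 (adjusted p = 0.0516 to 0.3 in all). LIG3, the ligase that XRCC1 binds, had values of 10.28, 10.37 and 10.40 in untreated replicates 1 to 3, 10.30, 10.34 and 10.64 with LPS and 10.89, 10.82 and 10.11 with PBD150 plus LPS and overlapped, at 0.08 ± 0.24 and 0.26 ± 0.24; the first was -0.09 with median centring.

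BLM and WRN are RecQ helicases that unwind recombination and replication intermediates. WRN had values of 6.64, 6.67 and 6.45 in untreated replicates 1 to 3, 6.60, 6.25 and 6.31 with LPS and 6.49, 6.53 and 6.22 with PBD150 plus LPS. Its groups overlapped, with differences of -0.20 ± 0.18 (adjusted p = 0.493) and -0.17 ± 0.18 (adjusted p = 0.535), and with the opposite sign on the values as deposited (0.24 and 0.14). BLM had values of 10.75, 10.67 and 10.59 in untreated replicates 1 to 3, 8.98, 8.29 and 8.06 with LPS and 8.02, 5.59 and 8.27 with PBD150 plus LPS. PBD150 plus LPS replicate 2 stood far below the other cultures of BLM, and its 3 arrays read -11.4, 290 and 327 intensity units, so 1 array of the 27 set that value. The fitted differences of BLM were -2.23 ± 0.64 (adjusted p = 0.0369) and -3.37 ± 0.64 (adjusted p = 0.00512). With the median of the 3 arrays of a culture, an alternative chosen after seeing the data, they were -2.21 (adjusted p = 0.000424) and -2.48 (adjusted p = 0.000223). The LPS call of BLM was lost as deposited, with a random block over all 27 arrays, and without any 1 untreated replicate or LPS replicate 2 or 3 (adjusted p = 0.0616 to 0.112).

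**Figure D2:**
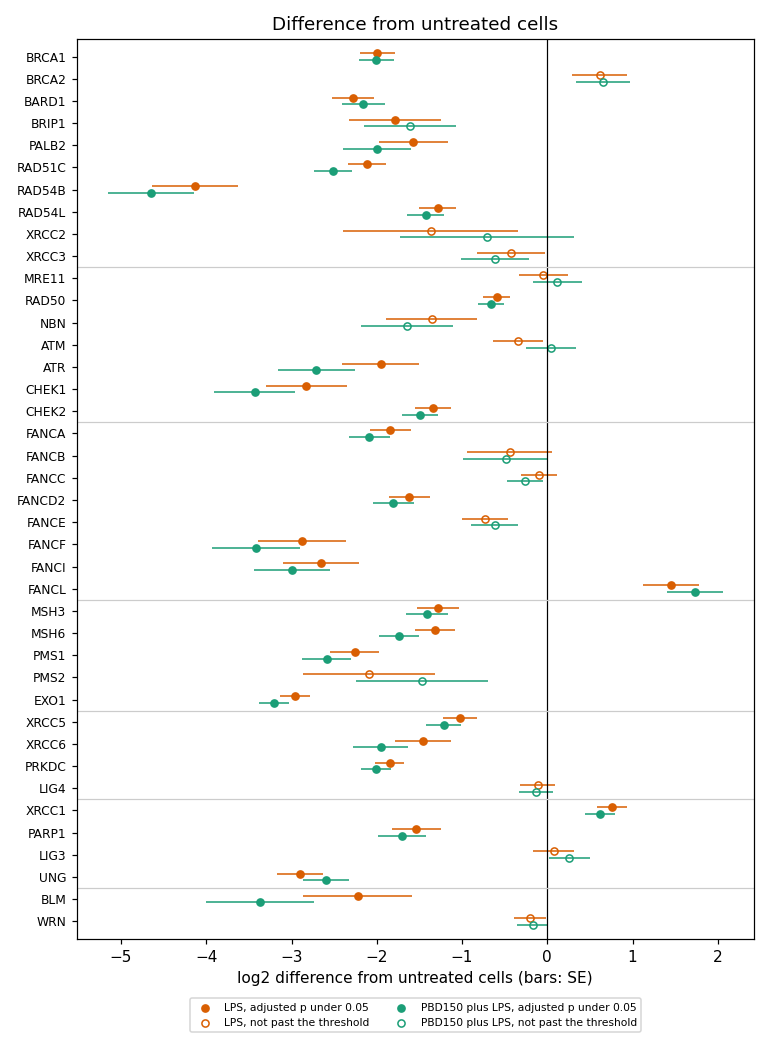
Log2 difference from untreated cells (x axis) for the 40 genes with LPS (orange) and PBD150 plus LPS (green); bars are SE and filled points passed adjusted p 0.05 (limma). Most points lie left of 0, FANCL and XRCC1 are filled on the right, and the 2 points of a gene share the untreated cultures.

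With LPS the replicates of 28 genes lay wholly below the untreated ones and those of 3 wholly above, where 24.7% and 25.8% of named genes lay below and above. With PBD150 plus LPS 26 lay below and 2 above, where the shares were 27.1% and 26.9%. The size of the fall differed between cultures of a group. Among the 25 genes lower with LPS, LPS replicate 1 was the highest of the 3 LPS cultures in 17, or 68%, while over all 2343 named genes lower with LPS it was the highest in 56.2%. Median differences of the 25 from untreated cells were -1.60, -2.0 and -2.03 in LPS replicates 1, 2 and 3. For the 24 genes lower with PBD150 plus LPS, the replicate medians were -2.22, -2.13 and -2.12, and replicates 1, 2 and 3 were the highest culture in 7, 9 and 8 genes (29.2%, 37.5% and 33.3%), where over all 2721 named genes lower with PBD150 plus LPS they were the highest in 21.2%, 20.8% and 57.9%. Whether the members' shares differ from those of all lower genes was not tested.

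Proliferation markers moved with these genes. Of 13 measured, 12 fell in each treated group, where 15.4% of all named genes fell with LPS and 17.9% with PBD150 plus LPS. The marker medians were -2.63 with LPS and -2.79 with PBD150 plus LPS. MCM4, a subunit of the replicative helicase, was at -3.24 and MKI67 at -2.54 with LPS. By culture, the median difference of the marker list from untreated cells was -1.87, -2.61 and -2.78 in LPS replicates 1 to 3 and -2.72, -2.78 and -2.89 with PBD150 plus LPS. Over the 40 repair and checkpoint genes it was -1.11, -1.32 and -1.73 and -1.81, -1.50 and -1.72. LPS replicate 1 was the least changed culture in both. In whole cultures, fewer dividing cells and less RNA per cell cannot be told apart, and the part of proliferation in the falls was not tested.

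Repair genes outside the 40 were lower in a smaller share of cases. Of 98 measured genes in the other lists, 39 were lower with LPS (39.8%) and 4 higher, with a median of -0.62. With PBD150 plus LPS 41 were lower and 6 higher. Of all named genes 15.4% were lower and 13.6% higher with LPS, and 17.9% and 15.3% with PBD150 plus LPS. Counts of the single lists below are with LPS and are to be read against those shares. Checkpoint signalling held 9 of 15 lower and none of the 15 higher: TIPIN, which protects forks, was at -2.86, CDC25A, the phosphatase that CHEK1 restrains, at -4.59, and H2AX, the histone marked at breaks, at -2.05. Base excision genes had 7 of 17 lower and 2 higher, with the flap nuclease FEN1 at -2.08, the glycosylase NEIL3 at -1.93 and the gap-filling polymerase POLB at 1.47, higher. The other recombination genes had 6 of 21 lower and 1 higher, and a median of 0.16: RAD51AP1, which stimulates the recombinase, was at -3.70, the helicase RECQL4 at -3.46 and SWI5 at 1.56. The other Fanconi genes had 2 of 8 lower (25%, near the 15.4% of all named genes at this list size), with a list median of -0.51. These were USP1, the deubiquitinase of FANCD2, at -2.87 and the conjugating enzyme UBE2T at -1.90. End joining had 4 of 8 lower, with NHEJ1 at -2.66. Nucleotide excision repair had 5 of 14 lower and 1 higher, with GTF2H1 of the TFIIH complex at -1.61 and the nuclease subunit ERCC1 at 0.87, higher, and translesion synthesis and direct reversal had 5 of 13 lower, with ALKBH3 at -1.51. Of the mismatch list only MSH4 and MLH3 were measured; MSH4 passed with a fitted difference of -1.32, but was above noise on 3 untreated arrays and 0 LPS arrays, so no size is given. Whether the 40 genes and the other lists differ was not tested.

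**Figure D3:**
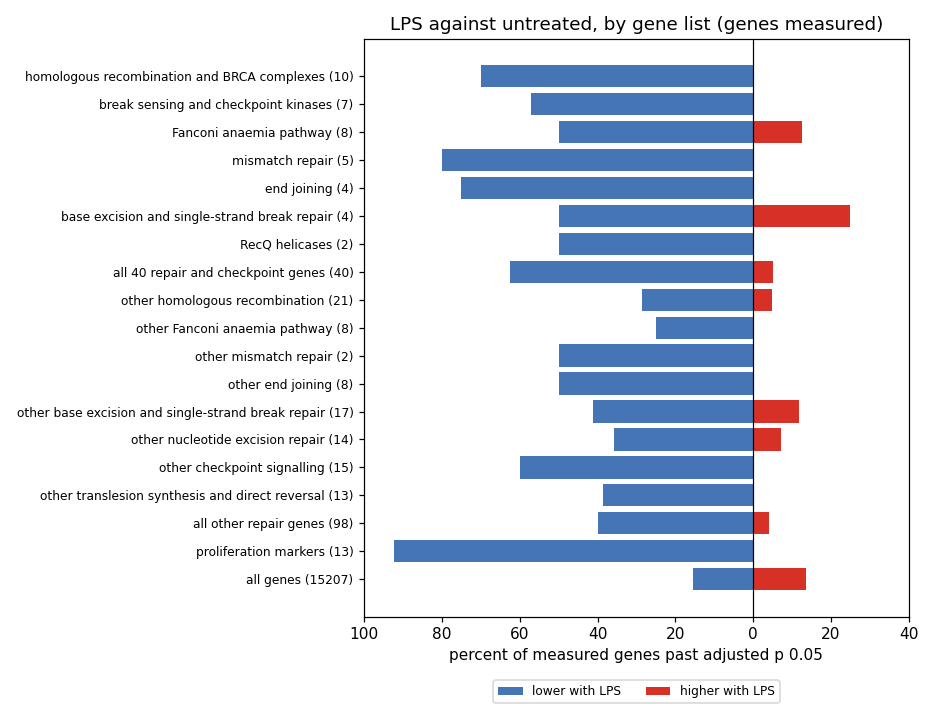
Percent of measured genes (x axis) lower (blue, left) and higher (red, right) with LPS at adjusted p under 0.05, for the 7 roles, the other repair lists, 13 proliferation markers and all 15207 named genes; the number measured stands beside each list. The 40 genes reach 62.5% lower, the other 98 repair genes 39.8%, and all named genes 15.4%.

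PBD150 plus LPS and LPS cultures differed in the labelled PBD150 pretreatment. Between them none of the 40 genes and none of the 15207 named genes was called, 0% in each direction (limma). At an unadjusted p under 0.05 there were also none among the 40, against 678 of all named genes, and the smallest unadjusted p of the 40 was 0.103. Replicates overlapped in all 40 genes, where 4.47% of named genes lay wholly below and 3.27% wholly above. A dimmer FANCF probe, not among the 40 brightest, stood at -1.23 (unadjusted p = 0.0161, limma adjusted p = 0.884). Values of 28 of the 40 were below 0, where 50.8% of all named genes were, and the median difference was -0.16. Without LPS replicate 1 that median was -0.06, and on the values as deposited it was -0.31, where the median of all named genes was itself -0.17. For 24 of the 40 genes the 95% interval lay within 2-fold in either direction, and for 37 within 4-fold; the 2-fold share was 60%, near the 56% of all named genes. With the spread of the LPS-treated groups alone it lay within 2-fold for 21, or 52.5%, against 49.1% of all named genes.

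Some genes had narrow intervals in the fit over all groups, whose spread also draws on the untreated cultures. For BRCA1 the difference was -0.01 (95% interval -0.47 to 0.45), for PRKDC -0.16 (95% interval -0.56 to 0.24), for EXO1 -0.25 (95% interval -0.64 to 0.15) and for RAD50 -0.07 (95% interval -0.42 to 0.29), each with limma adjusted p between 0.906 and 0.992. With the spread of the LPS-treated groups alone the intervals were -0.62 to 0.59, -0.70 to 0.38, -0.78 to 0.29 and -0.56 to 0.42, in that order. Both sets of intervals exclude a 2-fold difference in either direction but do not show that the levels were equal. Other genes were left wide: CHEK1 differed by -0.60 (95% interval -1.69 to 0.48), ATR by -0.75 (95% interval -1.78 to 0.27) and FANCF by -0.55 (95% interval -1.72 to 0.63), with adjusted p = 0.906 for each. The lowest value was that of BLM, -1.15 (95% interval -2.60 to 0.30), and it rested on the array with a reading below 0; with the median of each culture's arrays it was -0.27 (adjusted p = 0.901). UNG and ATM had values above 0, 0.30 (95% interval -0.32 to 0.93) and 0.38 (95% interval -0.28 to 1.05), and neither passed.

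**Figure D4:**
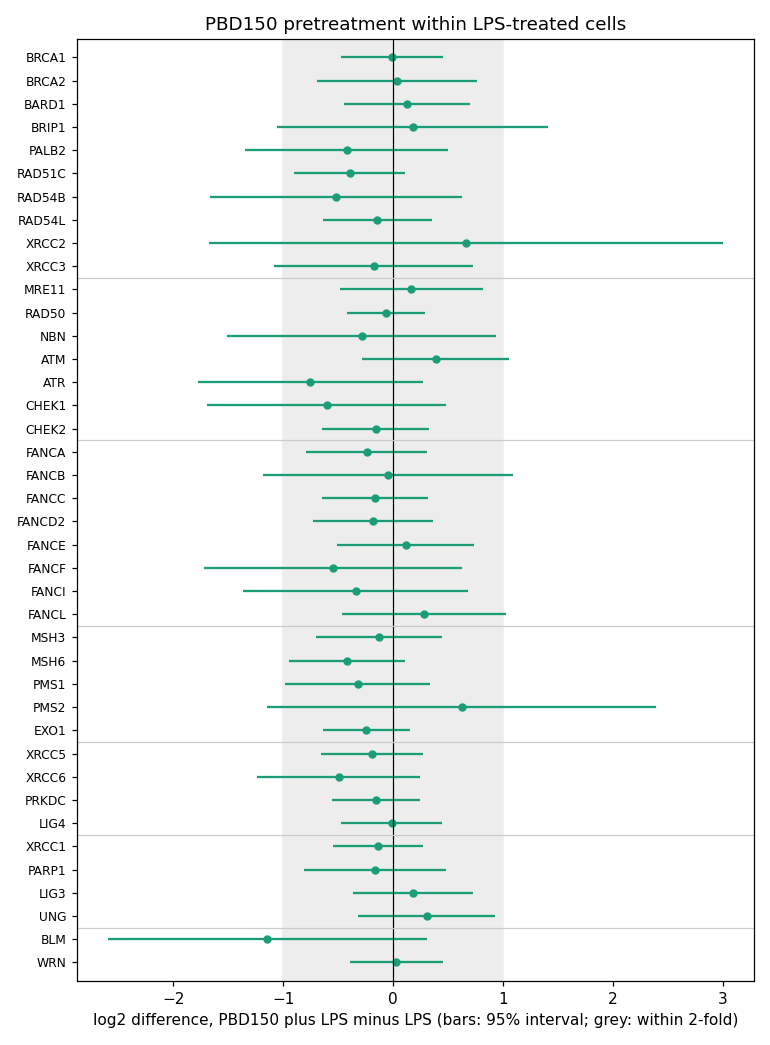
Log2 difference between PBD150 plus LPS and LPS (x axis) for the 40 genes, with 95% intervals from the fit over all groups; the grey band marks 2-fold in either direction. Every interval includes 0, 24 lie within the band, and BLM at -1.15 is the lowest point.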

How the data were processed

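RNA from 27 samples (2.5 µg each) was amplified and labelled with Cy5 for hybridisation to Phalanx Human OneArray slides, as the labels' protocols state. Values deposited by the authors are intensity on a linear scale, with some below 0. Their background correction and any scaling were not stated. The number of cultures, 3 in each group, limits the precision. A floor of 1 was set before taking log2, arrays were quantile normalised, and each culture's 3 arrays were averaged. limma 3.58.1 (R 4.3.3) fitted group means over all 9 replicates with 1 shared spread per probe, two-sided, with Benjamini-Hochberg adjustment over 30968 probes at 0.05; SE and 95% intervals come from that fit. No replicate block was used. The platform annotation gave gene symbols, 2645 of them updated through RefSeq; 17397 probes had 1 symbol, 0 several, and 13571 were unnamed here. For "at least N-fold", values of a group never above noise were first raised, per array, to the lowest signal above noise. The script was tested on simulated data. The members, gene lists and promoter letters were chosen with earlier results of these data known; every member may be named, and up to 4 genes with the smallest p of each other list. Alternatives changed the scaling, floor, dim-probe filter, block, samples fitted, technical arrays, weights, probe choice and single replicates.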

Additional observations from a re-analysis of the deposited data

How the results depend on the processing

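No called gene turned direction under the alternatives run. Of 27 calls for LPS against untreated 18 were kept under every one, and 9 were lost under at least 1 (BRIP1, PALB2, RAD50, XRCC5, XRCC6, BLM, XRCC1, MSH3 and ATR). Of 26 for PBD150 plus LPS against untreated 24 were kept and 2 lost (RAD50 and XRCC1). With LPS the lower genes numbered 19 as deposited, 26 with median centring, 27 with array weights, and 20 to 26 with 1 replicate left out; with PBD150 plus LPS they numbered 23 as deposited, 27 with array weights and 23 to 26 with 1 replicate left out. Higher genes with LPS were 1 rather than 2 with median centring or a replicate block, and 1 to 2 with 1 replicate left out; with PBD150 plus LPS they were 1 as deposited, with median centring and with a replicate block, and 1 to 2 with 1 replicate left out. XRCC1 was the gene lost in these cases; without PBD150 plus LPS replicate 3 it was lost too, but BRCA2 passed there, so the count stayed at 2. Genes not called that passed under at least 1 alternative were FANCE, NBN and PMS2 with LPS, and BRCA2, BRIP1, FANCE and NBN with PBD150 plus LPS. With the replicate block 22 genes were lower with LPS and 24 with PBD150 plus LPS. Deviations of same-numbered cultures correlated at -0.22 to 0.04, and those of differently numbered cultures at -0.07 to 0.19. The labels do not say whether same-numbered cultures shared a day. With 3 cultures a group these correlations cannot decide it. Of the genes not called, the sign turned under some alternative in 7 of 13, 7 of 14 and, for PBD150 plus LPS against LPS, 22 of 40, BRCA1 among them (0.19 with array weights). For BRCA2 averaging its probes turned the sign, to -0.09, -0.44 and -0.35. The cause was not tested. The 7 members above noise on fewer than 9 untreated arrays have signal too close to background for a firm size.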
